A study of Homo sapiens with 14 samples.

Results

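The genes described here are HMOX1, which encodes the inducible heme oxygenase, 4 genes of iron handling (TFRC, FTH1, FTL and SLC40A1), GPX4, and 4 genes of the NRF2 antioxidant response (NQO1, GCLM, TXNRD1 and SRXN1). A gene was taken as measured where the array annotation gave a transcript cluster exactly 1 symbol and that symbol was the gene's. By this rule 8 of the 10 genes were measured, out of 22465 genes in all, and each of the 8 had 1 such cluster. FTH1, the ferritin heavy chain, had no cluster under its own symbol in the annotation used here. SRXN1, which encodes sulfiredoxin, had 1 cluster that also names another gene and was not used.

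The arrays profiled U87MG, a human glioblastoma cell line, and asked how medium conditioned by mesenchymal stem cells (CM) changes its stem-like spheres. Gliospheres (3 arrays) were cells sorted for the surface protein CD133 and grown as floating spheres in serum-free medium with EGF, bFGF, LIF, B27 and N2 on ultralow attachment plates. BMT (3 arrays) and WJT (3 arrays) were gliospheres of passage 13 kept for 7 days in CM of bone marrow or of Wharton's jelly mesenchymal stem cells. The CM was sphere medium in which the stem cells had been kept, used with some fresh sphere medium. The controls were 2 arrays of negative spheres, labelled as spheroids of glioma cells that are not stem cells and described in the methods as the sorted fraction that made no spheres, and 3 arrays of the untreated cell line cultured in serum-containing medium. All groups derive from 1 cell line. By the methods both sorted fractions were first seeded in the sphere medium on ultralow attachment plates. Negative spheres therefore differ from gliospheres at least in the sorted fraction and in whether spheres formed. The paper adds that the negative fraction stopped making spheres in early passages and later tended to attach. Passage and attachment may thus differ too, and their part cannot be told apart from that of the sorted fraction. The cell line differs in sorting, medium and mode of growth together, and these cannot be told apart. The paper states that CM was made from 3 biological samples of each kind of stem cell and used singly. Sphere arrays are labelled as biological replicates without a word on which culture or stem cell sample each came from. The p-values therefore measure the spread between these arrays, which may in part be technical. In such bulk samples, fewer cells that express a gene and less RNA per cell cannot be told apart.

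Signals are on a log2 scale, on which a difference of 1 is a 2-fold change, and levels are compared between arrays for 1 gene at a time, because probes of different genes differ in brightness. The array medians ranged from 3.58 to 3.92, and the 10th percentiles from 2.97 to 3.15, so a signal near 3.5 is close to background. A pair of arrays stood apart from the rest of their groups. Gliospheres replicate 3 correlated at 0.964 and 0.972 with the other gliospheres arrays (0.983 between those), and cell line replicate 3 at 0.928 and 0.930 with the other cell line arrays (0.961 between those). Of 7 astrocyte and mesenchymal glioma markers 3 (VIM, CD44 and CHI3L1) exceeded a mean of 5 in every group. VIM, a mesenchymal marker, was the brightest (group means of 15.66 to 15.86). The astrocyte markers GFAP, S100B, AQP4 and ALDH1L1 lay near background on all 14 arrays (3.09 to 3.81). PROM1, which encodes CD133, lay near background on all 14 arrays (3.36 to 3.65), so the array did not separate the groups sorted for CD133 from the controls by that marker. Of 6 glioma stem cell markers, PAX6 was the 1 over a mean of 5 in each group. None of 3 erythroid markers exceeded 5, and CD68 was the 1 leukocyte marker of 6 that did, with CD14 near 3. Of 5 measured mesenchymal stem cell markers 3 (NT5E, ENG and PDGFRA) exceeded a mean of 5 in every group. THY1 (3.11 to 3.61) and NGFR (3.61 to 3.92) lay near background. The mean signal of these 5 was 7.59 to 8.12 on gliospheres arrays, 7.77 to 7.92 on BMT and WJT arrays and 6.84 to 7.68 on control arrays. Of them NT5E was 1.08 and PDGFRA 2.05 above control in gliospheres, neither called (limma adjusted p = 0.357 and 0.114). PDGFRA read 6.43, 6.33 and 9.02 in gliospheres and 4.82 to 5.77 in the controls, so its difference leaned on replicate 3. ENG read 6.47, 6.48 and 7.91 in gliospheres and 6.73 to 8.51 in the controls. Before adjustment 2 of the 5 were higher and 1 lower at a limma p of at most 0.05, beside 5.24% and 5.66% of all clusters. The part of these markers in the results below was not tested.

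Heme oxygenase opens the heme ring and releases its iron together with biliverdin and carbon monoxide. Cells bring in iron bound to transferrin through the transferrin receptor TFRC, store it in ferritin, which is built from the heavy chain FTH1 and the light chain FTL, and release it through ferroportin, the product of SLC40A1. When iron is scarce, iron regulatory proteins bind hairpins called iron-responsive elements and thereby hold back ferritin translation and stabilise TFRC mRNA. NRF2, encoded by NFE2L2, is held down by KEAP1 under basal conditions. Once released it binds antioxidant response elements (AREs) near its targets, among which are HMOX1, NQO1, GCLM, TXNRD1, SRXN1 and the ferritin genes. GPX4 reduces lipid peroxides and thereby protects cells from ferroptosis, an iron-dependent form of cell death.

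The promoter sequences that hold the core of an ARE and the transcript start that holds the loop of an iron-responsive element are shown because these are the elements named above. The ARE core was searched as TGACNNNGC on both strands in the 300 bases that end 50 bases after each annotated start in RefSeq (GRCh38.p14). Of the 10 genes, 8 had such a window, and 2 of these, GCLM and TXNRD1, held the core. HMOX1 and FTH1 had no window in the sequences at hand and were not searched. These 8 genes include SRXN1 and so are not the 8 measured ones. The core was present in 13.3% of all 35116 windows, a share of windows and not of genes, since a gene can have several. It shares its opening TGA with the AP-1 motif TGANTCA, which was not searched. Sequences are given along the gene's own strand with the matched letters in capitals. In GCLM, in the shorter stretch at the first TXNRD1 start and at the other TXNRD1 start, the core lies on the opposite strand and its reverse complement is shown.
GCLM, chr1:93909436-93909484, minus strand, bases 34 to 26 before the start: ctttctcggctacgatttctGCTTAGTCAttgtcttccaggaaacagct
TXNRD1, chr12:104215660-104215708, plus strand, bases 99 to 91 before the first start: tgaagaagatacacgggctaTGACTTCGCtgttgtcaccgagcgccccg
TXNRD1, chr12:104215761-104215790, plus strand, from base 8 before the first start to base 1 of the transcript: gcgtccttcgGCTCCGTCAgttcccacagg
TXNRD1, chr12:104286910-104286958, plus strand, bases 102 to 94 before another start: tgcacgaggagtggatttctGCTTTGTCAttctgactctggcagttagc
The bulge, upper stem and loop of an iron-responsive element were searched as CNNNNNCAGTG on the gene strand in the first 50 transcribed bases, where 1.71% of all windows held it. Within these first bases FTL was the 1 gene of the 8 with a match, at bases 33 to 43 of the transcript, within its 5′ UTR. The rest of each transcript, the 3′ UTR included, was not searched.
FTL, chr19:48965333-48965358, plus strand: gtctcttgCTTCAACAGTGtttggac
A match describes the letters in these windows and is no measure of binding. Bases outside the windows were not searched, so a gene without a match may hold either element elsewhere.

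HMOX1 (chr22:35381096-35394207) separated the sphere arrays from the controls. Its log2 signals were 6.53, 5.93 and 6.61 in gliospheres, 6.90, 6.23 and 6.63 in BMT, and 6.92, 6.96 and 6.71 in WJT. The negative spheres gave 9.37 and 8.91, and the cell line gave 8.27, 7.57 and 8.70. All 9 arrays of gliospheres and treated gliospheres, at 5.93 to 6.96, therefore lay below all 5 control arrays, at 7.57 to 9.37.

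Against the 5 controls taken as 1 group, HMOX1 was 4.61-fold lower in gliospheres (log2 difference of -2.21, SE 0.33, 95% interval of -2.93 to -1.48, n = 3 and 5, adjusted p = 0.0141 in limma over all 67528 transcript clusters). It was 1 of the 8 measured genes called at an adjusted p below 0.05 in this comparison, in which 0.569% of all clusters were called. The difference was present against each kind of control taken alone. Against the negative spheres, where 0.145% of clusters were called, it was -2.78 (SE 0.32, adjusted p = 0.00952, limma). Against the cell line, where 0.342% were called, it was -1.82 (SE 0.29, adjusted p = 0.0303, limma). With the replicate number as a block, since same-numbered gliospheres and cell line arrays deviated together, it was again -1.82 (SE 0.21, adjusted p = 0.0189, limma), while the clusters called fell from 231 to 119. No label states this pairing, which was read from these same data. Between the controls themselves HMOX1 was 0.96 higher in negative spheres than in the cell line without overlap of the arrays, but this was not called (95% interval of 0.26 to 1.67, limma adjusted p = 0.623), in a comparison with 0% of clusters called and 16.2% without overlap. The order of the group means, from 6.36 in gliospheres over 6.59 in BMT, 6.86 in WJT and 8.18 in the cell line to 9.14 in negative spheres, thus had no called step among the sphere groups or between the controls. Its step from WJT to the cell line, whose arrays do not overlap, was tested with both controls together.

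The call against the controls depended on the arrays that set the spread. With only the arrays compared in the fit, the adjusted p for gliospheres against control was 0.179 (limma, log2 difference of -2.21), and without gliospheres replicate 2, the lowest array, it was 0.0733 at a difference of -1.99. Over the 16 alternatives run, the difference stayed between -2.45 and -1.99. Against the negative spheres the call was lost with only the arrays compared (limma adjusted p = 0.139) and without negative spheres replicate 1 (0.0801, at -2.56). Against the cell line HMOX1 missed the threshold with only the arrays compared (limma adjusted p = 0.545), with quantile normalization (0.0522), with array weights (0.0765) and without gliospheres replicate 2 (0.0987, at -1.61).

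Under CM treatment HMOX1 stayed below the controls. WJT was 0.51 above untreated gliospheres (95% interval of -0.30 to 1.31, limma adjusted p = 0.968), and although all 3 WJT arrays were above all 3 gliospheres arrays, 15.6% of all clusters showed such a separation in this comparison. BMT was 0.23 above gliospheres (95% interval of -0.58 to 1.04, limma adjusted p = 0.901) and its arrays overlapped. Set against the controls in a comparison chosen after seeing the data, HMOX1 fell by 1.70 in WJT (SE 0.33, limma adjusted p = 0.0263, 1.56% of clusters called) and by 1.98 in BMT (SE 0.33, limma adjusted p = 0.0249, 0.520% of clusters called). Each of these 2 differences missed the threshold when any 1 array of the treated group, or negative spheres replicate 2, was left out, with only the arrays compared and with quantile normalization. Over all alternatives the adjusted p reached 0.132 for WJT and 0.162 for BMT. No array of either treated group overlapped the controls, as in 10.0% of all clusters for WJT and 7.41% for BMT. These comparisons share the control arrays with the one above.

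**Figure D1:**
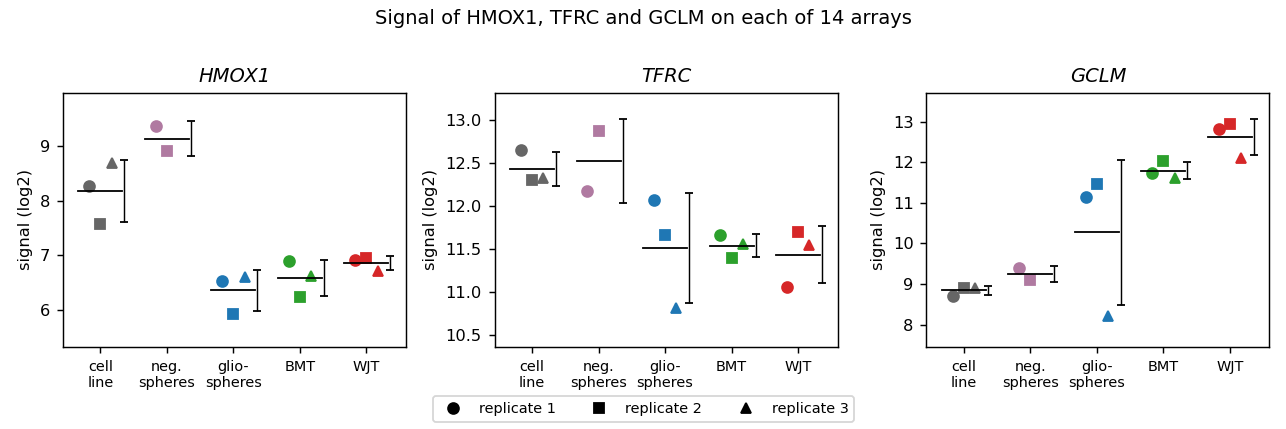
Log2 signal (y axis) of HMOX1, TFRC and GCLM in the 5 groups (x axis); points are single arrays, horizontal lines group means and bars 1 SD. For HMOX1 and TFRC the 9 arrays of gliospheres, BMT and WJT all lie below the 5 control arrays, and for GCLM 8 of these 9 lie above the controls, with gliospheres replicate 3 at 8.21.

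TFRC (chr3:196049284-196082090) showed the same arrangement on a smaller scale. Its signals were 12.07, 11.66 and 10.81 in gliospheres, 11.66, 11.40 and 11.56 in BMT, 11.06, 11.70 and 11.55 in WJT, 12.18 and 12.87 in negative spheres, and 12.66, 12.31 and 12.33 in the cell line. The highest sphere array, gliospheres replicate 1, was thus just below the lowest control, negative spheres replicate 1. In gliospheres against control the log2 difference was -0.96 (SE 0.25, 95% interval of -1.51 to -0.40), with an unadjusted p of 0.00271 in limma that did not pass adjustment (adjusted p = 0.147). Groups that do not overlap, as for HMOX1 and TFRC here, made up 6.50% of all clusters in this comparison. Taken singly, the negative spheres gave -1.01 (limma adjusted p = 0.381) and the cell line -0.92 (limma adjusted p = 0.254). The value leaned on gliospheres replicate 3, the lowest array, without which the difference from control was -0.61 (limma adjusted p = 0.397).

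The treated groups kept that level. TFRC differed from untreated gliospheres by -0.08 in WJT (95% interval of -0.70 to 0.54) and by 0.03 in BMT (95% interval of -0.59 to 0.65), and the sign of each turned under several alternatives. Relative to the controls, it was -1.03 in WJT (limma adjusted p = 0.0727, and 0.0240 with array weights) and -0.93 in BMT (limma adjusted p = 0.178). Across the 14 arrays HMOX1 and TFRC correlated at a Pearson r of 0.73, a description over arrays that share their groups.

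FTL (chr19:48965309-48966879), the ferritin light chain, varied most within the cell line. It read 17.54, 17.52 and 18.05 in gliospheres, 17.77, 17.09 and 17.15 in BMT, 17.49, 16.91 and 17.15 in WJT, 17.81 and 17.53 in negative spheres, and 18.48, 16.72 and 18.23 in the cell line. The cell line arrays alone covered the range of all other groups. All 3 WJT arrays were below the gliospheres arrays, for a mean log2 difference of -0.52 (95% interval of -1.35 to 0.31, limma adjusted p = 0.968). In this comparison 15.6% of all clusters showed no overlap. BMT gave -0.37 (95% interval of -1.20 to 0.46) and gliospheres against control -0.05 (95% interval of -0.79 to 0.69), neither of them called.

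SLC40A1 (chr2:189560590-189580786), which encodes the iron exporter ferroportin, was not clearly above background. Its signals lay between 3.34 and 3.97 on the 14 arrays, at the 30.9th to 59.5th percentile of their own array. The highest was gliospheres replicate 3, at 3.97 against 3.34 and 3.43 in the other gliospheres, and no comparison is drawn from values at this level.

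GCLM (chr1:93885199-93909430) encodes the modifier subunit of glutamate-cysteine ligase, which carries out the first step of glutathione synthesis. It was the measured gene that varied most across the arrays (SD of 1.68 over 14 arrays). Signals were 8.71, 8.90 and 8.91 in the cell line and 9.38 and 9.10 in negative spheres. In gliospheres they were 11.13, 11.47 and 8.21, in BMT 11.73, 12.03 and 11.61, and in WJT 12.81, 12.94 and 12.10. The WJT arrays were thus the highest of all 5 groups, BMT next, and gliospheres followed except for replicate 3, whose signal was below every control.

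That array decided what the gliospheres comparison showed. With all 3 arrays GCLM was 1.27 above control (95% interval of 0.03 to 2.51) and not called (limma adjusted p = 0.448). Without gliospheres replicate 3, the array that also stood apart over all clusters, it was 2.30 above control and called (limma adjusted p = 0.00202). The same held against negative spheres (2.06 without that array, adjusted p = 0.0164, limma) and against the cell line (2.46, adjusted p = 0.00387, limma). Controls spread far less, with an SD of 0.25 over 5 arrays.

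After CM treatment GCLM was higher on every treated array than on any gliospheres array. The log2 difference was 2.35 in WJT (5.10-fold, SE 0.64, 95% interval of 0.96 to 3.74, unadjusted p = 0.00309 in limma) and 1.52 in BMT (2.88-fold, SE 0.64, 95% interval of 0.14 to 2.91, unadjusted p = 0.0338 in limma). Neither passed adjustment over all clusters (adjusted p = 0.434 and 0.549, limma). For WJT no cluster of the array was called (0% of 67528, while unadjusted p-values reached 0.05 for 1688 higher and 2371 lower ones), and for BMT 6 clusters were (0.00889%). At a fold of 2 or more together with a p of at most 0.05 before adjustment, GCLM was the 1 of the 8 genes that qualified in each comparison, where 0.862% and 1.11% of all clusters did. The study's results state its filter in this form, as a fold change of 2. Its methods word the minimum as 2 on the log2 scale, which GCLM met in WJT (0.155% of all clusters) and no measured gene met in BMT (0.299% of all clusters). No overlap with gliospheres was found in 15.6% of all clusters for WJT and 18.5% for BMT. Gliospheres replicate 3 again set the size: without it the difference was 1.32 in WJT (limma adjusted p = 0.168) and 0.49 in BMT (limma adjusted p = 0.817).

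WJT exceeded BMT in GCLM by 0.83 (95% interval of -0.56 to 2.21, limma adjusted p = 1.00) and no cluster was called between the CM sources (0%). Against the controls, in the comparison chosen after seeing the data, WJT was 12.3-fold higher (log2 difference of 3.62, SE 0.57, limma adjusted p = 0.00885). Without WJT replicate 2 that adjusted p was 0.0674, at a difference of 3.46. BMT was 6.93-fold higher than control (2.79, SE 0.57) with an adjusted p of 0.0608, which lay under 0.05 in 4 of 16 alternatives.

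**Figure D2:**
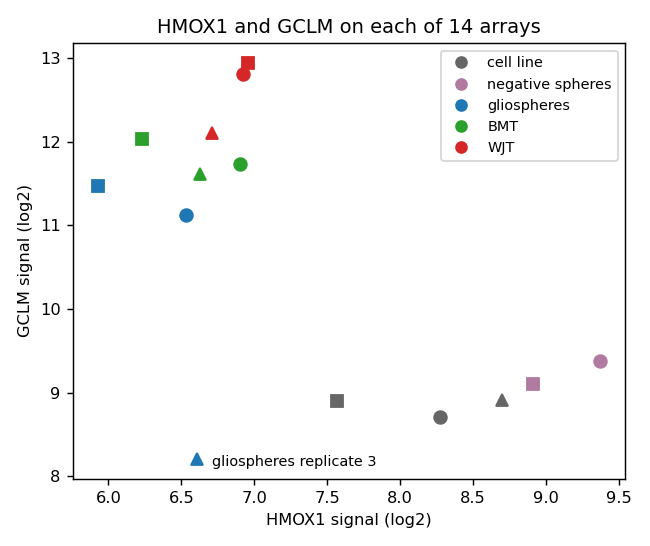
Log2 signal of HMOX1 (x axis) against log2 signal of GCLM (y axis) for the 14 arrays, coloured by group with the marker shape giving the replicate number. Controls form the lower right (HMOX1 of 7.57 to 9.37, GCLM of 8.71 to 9.38), treated and untreated gliospheres the upper left, and gliospheres replicate 3 (6.61 and 8.21) joins neither.

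HMOX1 and GCLM, both NRF2 targets, thus lay on opposite sides of the controls on 8 of the 9 sphere arrays, and both below them on gliospheres replicate 3 (Pearson r of -0.62 over 14 arrays, as a description). The genes whose pattern across the 14 arrays was most like HMOX1, among 9204 genes with a mean signal of at least 5, were ADGRG1 (r of 0.937), RRAGD (0.920) and YIF1B (0.909). RRAGD encodes a Rag GTPase of amino acid signalling to mTORC1, and ADGRG1 an adhesion G protein-coupled receptor. For GCLM they were IGFL3 (0.973), ADAM17 (0.951), which encodes a sheddase of membrane proteins, and MCTP2 (0.949).

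NQO1 (chr16:69709401-69726560), a quinone reductase and a classic NRF2 target, did not follow GCLM. Its signals were 11.19, 11.94 and 14.92 in gliospheres, 12.22, 12.18 and 11.91 in BMT, and 11.91, 11.31 and 11.79 in WJT. Negative spheres gave 12.14 and 12.50 and the cell line 11.26, 13.79 and 13.69. The brightest array was gliospheres replicate 3, on which GCLM was dimmest, and the dimmest was another gliospheres array, so the other groups fell within the range of gliospheres. The log2 differences were -1.01 in WJT against gliospheres (95% interval of -2.85 to 0.82), -0.58 in BMT (95% interval of -2.42 to 1.25) and 0.00 in gliospheres against control (95% interval of -1.64 to 1.64), none of them called. Without gliospheres replicate 3 they were 0.11, 0.54 and -1.12, so no direction can be given for NQO1. The correlation with GCLM over 14 arrays was -0.63, again as a description.

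TXNRD1 (chr12:104215779-104350307), the cytosolic thioredoxin reductase and, like GCLM, a gene with ARE cores in its promoter windows, varied little. Signals were 8.91, 8.61 and 8.26 in gliospheres, 8.22, 8.13 and 8.27 in BMT, 8.35, 8.18 and 8.32 in WJT, 8.05 and 8.48 in negative spheres, and 7.63, 8.73 and 9.06 in the cell line. The treated arrays were tightly grouped at 8.13 to 8.35, and only gliospheres replicate 3 of the untreated gliospheres fell among them. Differences from gliospheres were -0.31 in WJT (95% interval of -0.95 to 0.33) and -0.38 in BMT (95% interval of -1.03 to 0.26), and gliospheres differed from control by 0.20 (95% interval of -0.38 to 0.78). None was called.

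GPX4 (chr19:1103994-1106779) read 11.66, 12.61 and 12.61 in gliospheres, 11.60, 11.60 and 11.38 in BMT, 11.88, 11.47 and 11.65 in WJT, 12.12 and 11.67 in negative spheres, and 12.99, 11.58 and 12.95 in the cell line. The treated arrays were again close together, at 11.38 to 11.88, while gliospheres and the cell line each held 2 bright arrays and 1 at the level of the treated ones. BMT was 0.77 below gliospheres without overlap (log2 difference of -0.77, 95% interval of -1.60 to 0.07, limma adjusted p = 0.620), and WJT gave -0.63 (95% interval of -1.46 to 0.21, limma adjusted p = 0.942). In BMT against gliospheres 18.5% of all clusters showed no overlap. Gliospheres and control differed by 0.03 (95% interval of -0.71 to 0.78). GPX4 and FTL moved together over the 14 arrays (Pearson r of 0.82), with their lowest cell line signal on the same array, replicate 2.

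**Figure D3:**
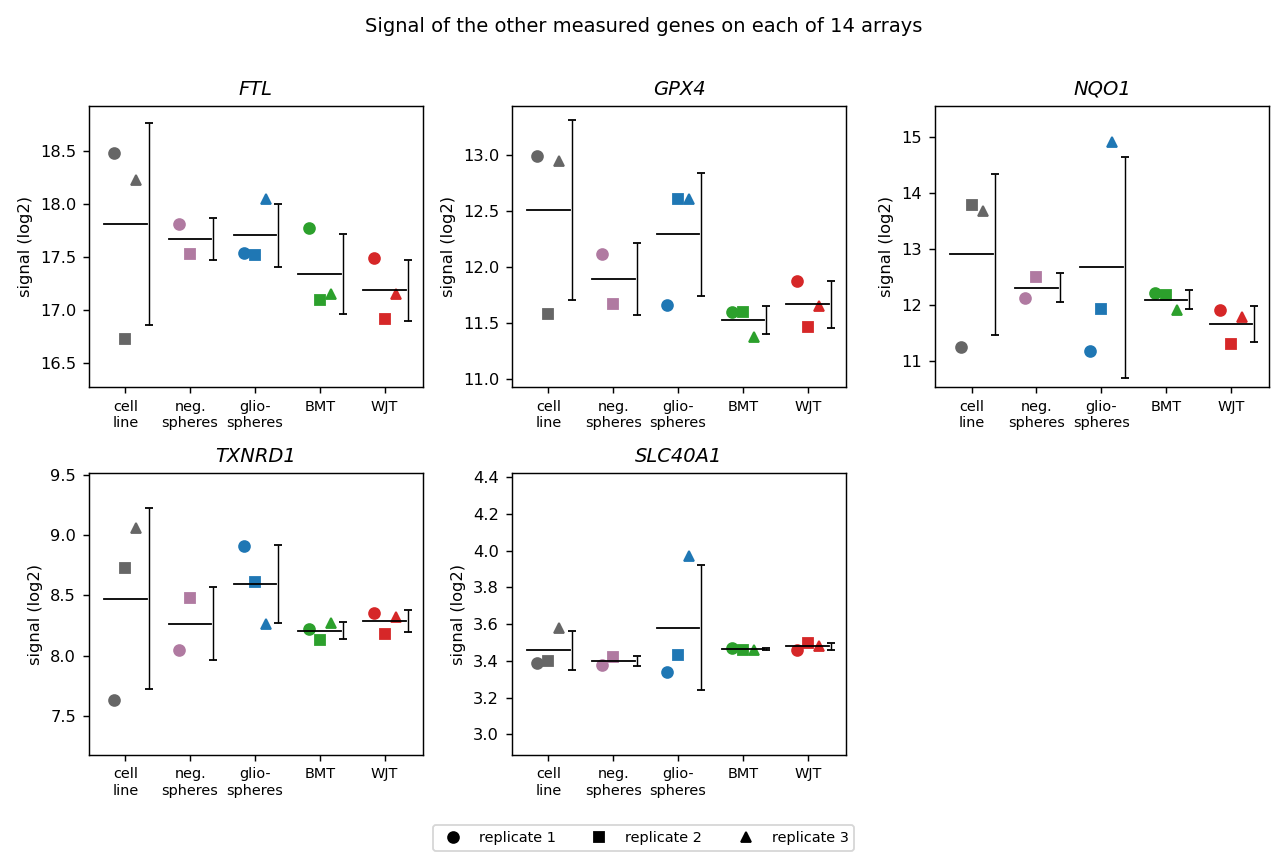
Log2 signal (y axis) of FTL, GPX4, NQO1, TXNRD1 and SLC40A1 in the 5 groups (x axis); points are single arrays, horizontal lines group means and bars 1 SD. For GPX4, NQO1, TXNRD1 and SLC40A1 the BMT and WJT arrays lie closer together than the gliospheres and the cell line arrays, as for NQO1 at 11.31 to 12.22 when treated and 11.19 to 14.92 in gliospheres.

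Over the 8 measured genes, the median log2 difference was 0.02 in gliospheres against control (-0.066 over all clusters), -0.20 in WJT against gliospheres (-0.011 over all clusters) and -0.24 in BMT against gliospheres (0.030 over all clusters). The genes did not move as a block. HMOX1 and TFRC were low and GCLM mostly high in the sphere arrays, while the intervals of the other 5 spanned 0 in each of these 3 comparisons.

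**Figure D4:**
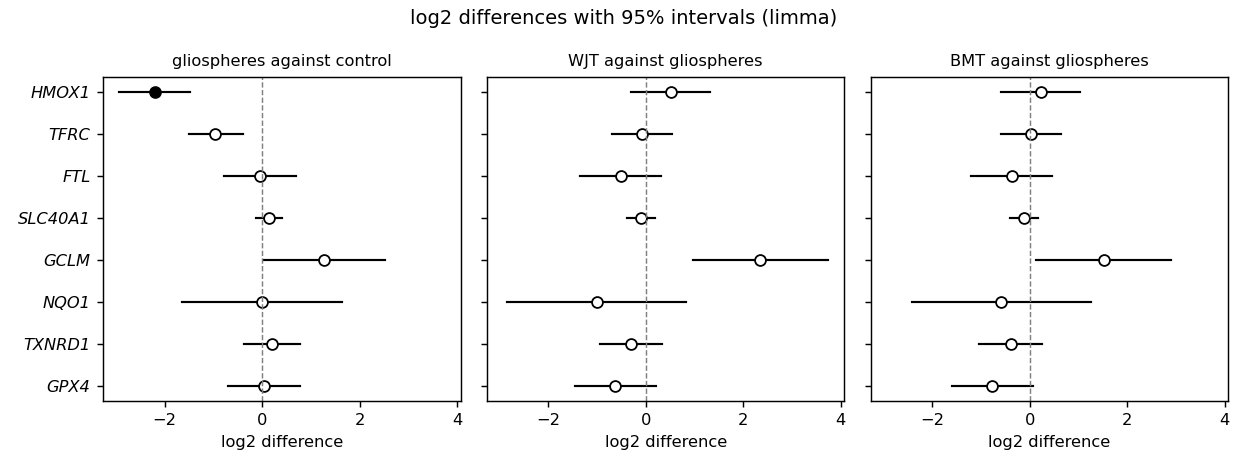
Log2 differences (x axis) of the 8 measured genes (y axis) in 3 comparisons, with 95% intervals from limma; filled points passed an adjusted p of 0.05 and the dashed line marks 0. HMOX1 in gliospheres against control (-2.21) is the filled point, and GCLM has the highest value against gliospheres in WJT (2.35) and BMT (1.52).

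The pathways around these genes were followed with 8 lists. Of 12 further genes of heme breakdown and transport, 10 were measured and none was called in WJT or BMT against gliospheres or in gliospheres against control. LRP1, which encodes a receptor that also takes up heme bound to hemopexin, had the smallest p there. It read 9.29, 8.86 and 10.40 in gliospheres, 11.46, 11.40 and 11.31 in BMT and 11.67, 12.58 and 12.61 in WJT, so that all treated arrays lay above all untreated ones. Such a lack of overlap with gliospheres was found in 15.6% of all clusters for WJT and 18.5% for BMT. The log2 difference of LRP1 was 2.77 in WJT (unadjusted p = 0.000972, adjusted p = 0.283, limma) and 1.87 in BMT (adjusted p = 0.450, limma), and relative to control WJT gave 2.76 (adjusted p = 0.0346, limma). HMOX2, the constitutive heme oxygenase, stayed near 6 (6.22 in gliospheres, 5.92 in BMT, 5.97 in WJT and 6.05 in controls), and BLVRA, which reduces biliverdin, differed by 0.42 between gliospheres and control (limma adjusted p = 0.515). Of 14 heme synthesis genes 11 were measured and none was called in these 3 comparisons.

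Of 27 further genes of iron uptake, storage and export, 26 were measured and none was called in the same 3 comparisons, although before adjustment 4 were higher and 2 lower in gliospheres than control at a p of at most 0.05, beside 5.24% and 5.66% of all clusters. SLC25A37, which encodes mitoferrin, an importer of iron into mitochondria, differed by 0.65 (limma adjusted p = 0.133). PRNP, the prion protein gene, differed by 0.83 (limma adjusted p = 0.200). Of 20 genes of iron sensing and iron-sulfur clusters, 17 were measured and 1 was called in gliospheres against control, where 0.569% of all clusters were. NFS1, the cysteine desulfurase that supplies sulfur to the clusters, read 7.17, 7.23 and 7.56 in gliospheres and 6.80 to 6.88 in the controls. It rose by 0.48 in gliospheres (SE 0.08, limma adjusted p = 0.0296). In WJT against control, a comparison added after seeing the data, 1.56% of all clusters were called. There SLC11A2, an iron transporter of the endosome (0.82, limma adjusted p = 0.0362), and BMP6, a signal for hepcidin in the liver (0.38, limma adjusted p = 0.0255), were called higher. Lower in the same comparison was ISCA1, an iron-sulfur cluster assembly gene (-1.06, limma adjusted p = 0.00944).

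The signal of NRF2's own gene overlapped between the groups. NFE2L2 read 9.21, 9.57 and 10.51 in gliospheres, 9.25 to 9.76 in BMT, 9.39 to 9.61 in WJT and 9.07 to 9.93 in the controls, with gliospheres replicate 3 the highest array. Among the 13 measured of 17 genes for NRF2 and its regulators none was called in the 3 comparisons, and KEAP1 gave 0.37 in gliospheres against control (limma adjusted p = 0.310). Of 36 other NRF2 targets 34 were measured, and none was called. Before adjustment 7 of the 34 reached a p of at most 0.05 upwards in gliospheres against control and 7 downwards. Over all clusters the shares were 5.24% upwards and 5.66% downwards. The median of the list was 0.04 against -0.066 for all clusters.

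The genes of this list with the smallest p differed from control in both directions. Whether NRF2 raises or lowers each of them was not tested. TXNIP, the thioredoxin inhibitor, read 9.70, 10.26 and 10.11 in gliospheres and 10.64 to 13.95 in the controls (log2 difference of -2.24, limma adjusted p = 0.109). AKR1C1, an aldo-keto reductase, read 6.84, 8.08 and 10.41 in gliospheres, 7.79 to 8.53 in the treated arrays and 5.40 to 7.05 in the controls (2.41, limma adjusted p = 0.137). PGD, an enzyme of the pentose phosphate pathway, which yields NADPH, read 12.02 to 12.22 in gliospheres, 12.02 to 12.56 in the treated arrays and 9.86 to 11.90 in the controls. Its difference was 1.15 in gliospheres (limma adjusted p = 0.163) and 1.5 in WJT against control (limma adjusted p = 0.0383). AKR1C1 was highest on gliospheres replicate 3, as was NQO1.

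Of 32 genes for glutathione, thioredoxin and peroxide enzymes, 28 were measured and none was called in the 3 comparisons. TXN2, mitochondrial thioredoxin, gave -1.04 in WJT (limma adjusted p = 0.393) and -1.01 in BMT (limma adjusted p = 0.332) against gliospheres. GPX1, the cytosolic glutathione peroxidase, gave -0.68 and -0.65 (limma adjusted p = 0.621 and 0.478) and fell by 1.02 in WJT against control (limma adjusted p = 0.0353). MSRA, a methionine sulfoxide reductase, was called against negative spheres alone, at -0.48 (limma adjusted p = 0.0474) and with all its signals under 5.

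Of 33 genes for ferroptosis and selenoprotein synthesis, 27 were measured and 1 was called in gliospheres against control. LRP8, a receptor that takes up selenoprotein P and so supplies selenium for enzymes such as GPX4, read 8.55, 8.29 and 8.73 in gliospheres, 8.49, 8.31 and 8.51 in BMT, and 8.75, 9.43 and 8.96 in WJT. Negative spheres gave 7.42 and 7.48 and the cell line 6.63, 7.19 and 7.70. It rose by 1.24 in gliospheres (SE 0.22, limma adjusted p = 0.0314), by 1.76 in WJT (limma adjusted p = 0.00266) and by 1.15 in BMT (limma adjusted p = 0.0444) relative to control, with all 9 sphere arrays above all 5 controls. No overlap with control was found in 6.50% of all clusters for gliospheres, 10.0% for WJT and 7.41% for BMT. The shares of clusters called against control were 0.569% for gliospheres, 1.56% for WJT and 0.520% for BMT. TRNAU1AP, which serves selenocysteine incorporation, fell by 0.75 in WJT against control (limma adjusted p = 0.0249).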

How the data were processed

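Total RNA of 14 samples was measured on Affymetrix Human Transcriptome Array 2.0 arrays. The deposited values are log2 signals per transcript cluster, which the authors made with Transcriptome Analysis Console by its SST-RMA method (a signal space transformation followed by robust averaging over arrays). Of 70523 features, 2995 other probe sets were left out. Symbols come from the platform annotation (23781 clusters with 1 symbol, 1543 with several, 42204 with none), and 21497 clusters were matched to RefSeq through the gene number with 0 symbols updated. Coordinates and sequences are from RefSeq on GRCh38.p14.

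All 67528 clusters were fitted with limma 3.58.1 (lmFit, eBayes) in R 4.3.3, with Benjamini-Hochberg adjustment over all clusters. A fit of 4 groups, with negative spheres and cell line as 1 control of 5 arrays, gave the comparisons among gliospheres, BMT, WJT and control. A fit of 5 groups gave those with each control alone. The comparisons share arrays. Replicate numbers were taken to pair gliospheres with cell line arrays, because deviations from the group means correlated at 0.284, 0.317 and 0.396 in the 3 same-numbered pairs. No label states this pairing, and both arrays of the pair with number 3 stood apart from their groups. WJT and BMT against control were added after seeing the data. The fit was tested on simulated data. Figures used Python 3.11.15 with matplotlib 3.10.9.

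The genes, pathway lists and marker lists were chosen with earlier results of these data known, and the lists come from general knowledge. Genes outside the 10 are named by fixed rules, namely up to 3 of smallest p per list and comparison, called genes, and the 3 genes of highest Pearson r. NFE2L2 was named for its role. Alternatives were quantile normalization, array weights, a replicate block, only the arrays compared, median centring, an intensity trend, clusters with a mean log2 of 5 or more, and each array left out. Leaving out both arrays that stood apart was added after seeing the data. The alternatives were followed for the measured genes among the 10, and calls of other genes were not followed through them.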

Additional observations from a re-analysis of the deposited data

Results flagged for a closer look

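SLC40A1 on cell line replicate 3, at a log2 signal of 3.58, stood off from the other 4 control arrays by 0.77 of the range of the 5, above the critical value of 0.71 for Dixon's test. It was the 1 such array among 8 genes tested in the control group, where chance flags about 1 in 20. The signal lay near background, and the array also stood apart over all clusters.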

How the results depend on the processing

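Of 557 recalculated differences of single genes, 499 kept their direction and their side of the threshold, 21 lost the threshold, 9 gained it and 28 changed sign. With 1 of the 8 genes called in gliospheres against control, against negative spheres and against cell line, each count was 0 with only the arrays compared, ran from 0 to 2 with each array left out in turn, and was 2 without both arrays that stood apart. Against cell line it was also 0 with quantile normalization and with array weights. For WJT against control (2 called) it was 1 with only the arrays compared, 1 with quantile normalization, 3 with array weights, 3 with a mean log2 of at least 5, 3 without both arrays that stood apart, and 0 to 2 with each array left out. For BMT against control (1 called) it was 0 with quantile normalization, 2 with array weights, 2 with a mean log2 of at least 5, 2 without both arrays that stood apart, and 0 to 1 with each array left out. With only the arrays compared it stayed at 1, but the gene was GCLM in place of HMOX1.

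Signs turned for TFRC, FTL, GPX4 and NQO1, the last also where its difference was large. TFRC gave 0.11 in WJT against gliospheres with quantile normalization, and in BMT against gliospheres -0.01 with median centring and -0.09 with array weights. In gliospheres against control FTL gave 0.04 with median centring and NQO1 -0.12 with array weights. With each array left out in turn, TFRC ran from -0.43 to 0.20 in WJT against gliospheres, from -0.32 to 0.30 in BMT against gliospheres, from -0.23 to 0.08 in WJT against BMT and from -0.25 to 0.43 in negative spheres against cell line. NQO1 ran from -1.76 to 0.11 in WJT against gliospheres, from -1.33 to 0.54 in BMT against gliospheres and from -1.12 to 0.75 in gliospheres against control. In the last, FTL ran from -0.31 to 0.13 and GPX4 from -0.14 to 0.35. The cause was not tested.

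Correlations over 0.1 between deviations of same-numbered arrays were found in 11 of 26 pairs, against 11 of 52 pairs of other numbers. All pairs exceeded it between the cell line and gliospheres or BMT, and not all did in the other comparisons with 3 pairs, where arrays share only a number. With the replicate number as a block, GCLM in BMT against control was called (2.93, adjusted p = 0.0391, limma), which gave 2 genes there, and in gliospheres against control GPX4 turned to -0.01 and NQO1 to -0.15. Over all clusters the block moved the calls from 98 to 52 against negative spheres and from 231 to 119 against cell line.

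Calls over all clusters depended on the setting. Over all alternatives, each array left out included, they ran from 24 to 682 in gliospheres against control (384 as reported), from 1 to 310 against negative spheres, from 0 to 641 against cell line, from 226 to 2616 in WJT against control and from 57 to 822 in BMT against control. Array weights gave 174 calls in WJT against gliospheres and 94 in BMT. Median centring moved the split of clusters at a p of at most 0.05 before adjustment in gliospheres against control from 3538 higher and 3819 lower to 5105 and 1579. Averaging a gene's clusters was not run, since each gene had 1, and SLC40A1 was absent under the filter on low signals. The number of arrays limits the precision, and SLC40A1 lay too near background for any statement.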
